A study of Homo sapiens with 18 samples.

Results

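Transforming growth factor beta (TGF-β) signaling was described in 3 head and neck squamous cell carcinoma (HNSCC) cell lines through 10 genes chosen by name: the ligand genes TGFB1, TGFB2, INHBA and BMP4, the receptor genes TGFBR1 and TGFBR2, the signal transducer SMAD3, the feedback inhibitors SMAD7 and SKIL, and the target TGFBI. All 10 were among the 15475 genes tested, out of 19901 in the count table. A second list held 69 other ligands, receptors, SMADs, inhibitors, latency genes and targets of the pathway, of which 63 passed the filter on low counts. The untested ones were ACVRL1, CHRD, GREM1, LEFTY1, LEFTY2 and NODAL.

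The established human lines Detroit 562, FaDu and SCC-9, obtained from ATCC, were either left untreated (control) or treated with 50 ng/ml hepatocyte growth factor (HGF), the ligand of the receptor tyrosine kinase Met. Each of the 6 groups had 3 libraries, 18 in all. Treatment lasted 16 h by the sample records and the methods for these libraries, while the series record gives 48 h. SCC-9 was kept in DMEM F12 with hydrocortisone, unlike Detroit 562 and FaDu, for which MEM-α was used, so a difference between SCC-9 and the other lines cannot be told apart from a difference in medium. Each tumor is represented by 1 line, and the study's methods describe repeats of the experiment. The main fit took 1 estimate of the spread between repeats within a group, shared by all 6 groups. Its p-values therefore rest on repeats pooled over the 3 lines and do not measure the spread between tumors. Which number marks which repeat is not stated.

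Libraries held between 35304770 and 44003970 counts on genes, with a median of 40138919. The summed level of 7 epithelial and squamous markers was 3440 to 12800 CPM (counts scaled to library size with TMM factors) over all libraries. KRT14, a basal keratin, was at 0.852 to 1.43 CPM in Detroit 562, against 205 to 532 in FaDu and 2140 to 3410 in SCC-9. Of the defining immune markers, PTPRC had at most 3 counts and CD3E at most 4 in any library. In Detroit 562 the epithelial sum was 5250 to 7510 CPM in control and 3440 to 5050 in HGF libraries, while the sum of 3 immune markers, nearly all of it CD68, was 20.3 to 40.4 and 37.3 to 56.1 CPM. In FaDu the immune sum was 16.9 to 28.2 CPM in control and 29.4 to 36 in HGF libraries. The part of these shifts in the results was not tested.

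TGF-β ligands are secreted in a latent form, and once released they join type II receptors such as TGFBR2 with type I receptors such as TGFBR1. The type I receptor phosphorylates SMAD2 and SMAD3, which enter the nucleus with SMAD4. Activin A, a dimer of the INHBA product, uses the same SMADs, whereas BMP4 signals through SMAD1, SMAD5 and SMAD8 and induces the ID genes. In squamous carcinoma the pathway is known both for growth arrest and for invasive behavior.

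TGFB1 and TGFB2 encode ligands of the same receptors, and their transcripts moved in opposite directions in Detroit 562. Their upstream sequences are therefore shown, each the 250 bases before the RefSeq start (GRCh38.p14), with every match to the GC box GGGCGG on either strand in capitals. The TGFB1 window lies at chr19:41353923-41354172 on the minus strand and the TGFB2 window at chr1:218345086-218345335 on the plus strand.
TGFB1: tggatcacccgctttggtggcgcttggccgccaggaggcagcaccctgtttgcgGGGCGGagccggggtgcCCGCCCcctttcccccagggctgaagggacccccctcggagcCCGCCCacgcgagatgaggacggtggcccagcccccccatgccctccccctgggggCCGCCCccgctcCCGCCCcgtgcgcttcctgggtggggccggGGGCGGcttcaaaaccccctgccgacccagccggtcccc
TGFB2: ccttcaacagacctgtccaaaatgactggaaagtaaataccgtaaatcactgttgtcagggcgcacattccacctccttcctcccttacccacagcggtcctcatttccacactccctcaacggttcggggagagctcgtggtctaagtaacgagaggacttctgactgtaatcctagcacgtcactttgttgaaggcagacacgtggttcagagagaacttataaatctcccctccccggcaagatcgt
The TGFB1 window had a GC content of 76.8% and 6 GC boxes, and the TGFB2 window had 50.4% and 0. Over 35116 RefSeq windows of the same length the median GC content was 58.0% and 42.6% held a GC box. Neither window held the palindromic SMAD-binding element GTCTAGAC (0.182% of all windows), the AP-1 site TGANTCA (6.57%) or the cyclic AMP response element TGACGTCA (1.65%), searched on both strands. INHBA and SMAD7, the other members that rose with HGF in Detroit 562, had 0 GC boxes in their 1 and 3 windows. Of the 26 windows of all 10 members, 11 held a GC box, in 7 genes. Besides TGFB1 these were BMP4, TGFBR1, TGFBR2, SMAD3, SKIL and TGFBI, which were not called with HGF in Detroit 562. An AP-1 site lay in 1 SMAD3 window and a cyclic AMP response element in the SKIL window. A match is a description of letters and not a measured site. A link between these letters and the HGF response was not tested.

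The untreated lines differed widely in the members' levels. In bulk RNA, fewer cells of a type and less RNA per cell cannot be told apart. Levels between genes are compared per exon length, in CPM per kilobase of exon. TGFBI, an extracellular matrix protein gene named for its induction by TGF-β, had the highest per-length level of the members in Detroit 562 (102 ± 4.55, SD, n = 3) and in SCC-9 (273 ± 22.1). In FaDu it reached 6.24 ± 1.47, and SMAD3 had the highest per-length level of the members there with 16.6 ± 1.69.

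**Figure D1:**
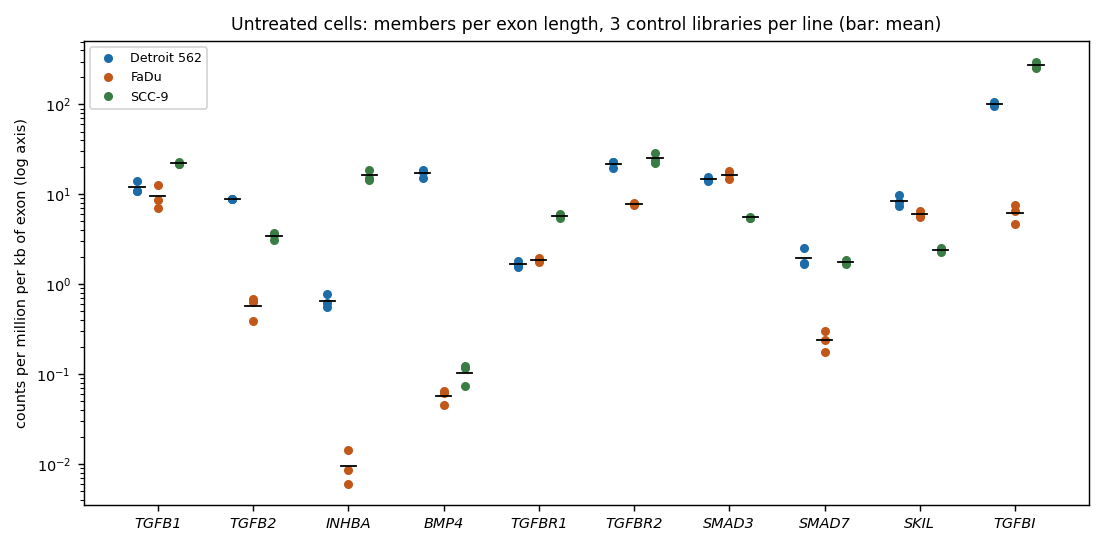
CPM per kilobase of exon (log axis) for the 10 members in the 3 control libraries of each line; points are libraries and bars are means. BMP4 stands at 17.3 in Detroit 562 against 0.0572 in FaDu and 0.104 in SCC-9, and INHBA stands at 16.3 in SCC-9.

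The ligand genes separated the lines. BMP4 measured 57.6, 55.1 and 47.6 CPM in untreated Detroit 562, between 0.141 and 0.201 CPM in FaDu (6 to 8 counts) and between 0.229 and 0.38 CPM in SCC-9 (9 to 16 counts). Detroit 562 was thus above both other lines with no overlap. The log2 difference was 8.22 ± 0.251 (SE) against FaDu and 7.35 ± 0.232 against SCC-9. FaDu and SCC-9 differed by -0.87 ± 0.418 on few counts (adjusted p = 0.071). That call was lost without FaDu control replicate 1 (adjusted p = 0.105) or 3 (0.181), without SCC-9 control replicate 1 (0.157) or 2 (0.186), and in a fit of these lines alone (0.121).

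INHBA, which encodes the activin βA chain, was highest in SCC-9. SCC-9 control libraries measured 156, 120 and 128 CPM, Detroit 562 measured 4.64, 5.19 and 6.46 CPM, and FaDu had 2 to 5 counts per library. The 3 lines did not overlap. INHBA was lower in Detroit 562 than in SCC-9 by a log2 difference of -4.63 ± 0.202 and lower in FaDu than in SCC-9 by -10.66 ± 0.325.

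TGFB2 was highest in Detroit 562 (54.3, 53.4 and 53.6 CPM), intermediate in SCC-9 (21.3, 18.7 and 22.5) and lowest in FaDu (3.85, 2.34 and 4.18). TGFB1 had a narrower range, with 72.1 ± 2.89 CPM in SCC-9, 39.2 ± 6.15 in Detroit 562 and 30.9 ± 9.5 in FaDu. Detroit 562 and FaDu overlapped for TGFB1, and their log2 difference of 0.34 ± 0.169 did not reach the fold minimum (adjusted p = 0.0799). It did so without FaDu control replicate 3 (0.61, adjusted p = 0.00128) or without Detroit 562 control replicate 1 (0.41, adjusted p = 0.0637). Over all fits that left out 1 library it ran from 0.17 to 0.61, with an adjusted p up to 0.366.

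TGFBR2, the type II receptor, measured 158, 157 and 136 CPM in Detroit 562, 195, 166 and 155 in SCC-9, and 55.6, 53.4 and 52.4 in FaDu. FaDu lay below both other lines, with a log2 difference of -1.68 ± 0.0962 from SCC-9, while Detroit 562 and SCC-9 overlapped (-0.19 ± 0.0933, adjusted p = 0.0678). TGFBR1, the type I receptor, was highest in SCC-9 with 46.3 ± 2.67 CPM, against 13.3 ± 1.01 in Detroit 562 and 14.8 ± 0.822 in FaDu, and the last pair did not pass the test (adjusted p = 0.167).

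Among the intracellular genes, SMAD3 was lowest in SCC-9 (54.6, 55.1 and 56.4 CPM) and higher in Detroit 562 (142, 144 and 156) and FaDu (149, 183 and 167). SMAD7, which blocks the type I receptor, was lowest in FaDu at 0.704 to 1.19 CPM, against 6.55 to 10.0 in Detroit 562 and 6.65 to 7.34 in SCC-9. SKIL, which encodes the SMAD co-repressor SnoN, was highest in Detroit 562 (69.4 ± 9.74 CPM), then FaDu (48.8 ± 4.31), then SCC-9 (19.6 ± 0.936). Its difference between Detroit 562 and FaDu (log2 0.51 ± 0.12) fell below the fold minimum without Detroit 562 control replicate 3 (0.39).

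TGFBI measured 1980 to 2300 CPM in SCC-9, 750 to 820 in Detroit 562 and 35.8 to 58.1 in FaDu, without overlap. A gene was called when its adjusted p in edgeR was below 0.1 and its log2 fold change was at least 0.4 in size. By this rule 7 of 10 members differed between Detroit 562 and FaDu, all 7 higher in Detroit 562, where 61% of all genes tested were called. Between Detroit 562 and SCC-9, 8 of 10 differed, 4 in each direction, against 65.4% of all genes. Between FaDu and SCC-9, 10 of 10 differed, 8 of them lower in FaDu, against 64.2% of all genes.

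In the pathway list 49 of 63 genes (77.8%) differed between untreated Detroit 562 and FaDu, where 61% of all genes tested did. Between Detroit 562 and SCC-9 55 differed (87.3%, against 65.4% of all genes), and between FaDu and SCC-9 51 (81%, against 64.2%). SMAD4, the common partner of the receptor SMADs, had 0 to 5 counts in untreated FaDu libraries against 1235 to 1492 in Detroit 562 and 2377 to 2482 in SCC-9. SMAD4 overlaps another gene of the table on its strand, so its count may include reads of that gene. ID4 had 0 to 2 counts and ID2 had 2 to 6 in untreated FaDu, against at least 1303 and 649 in Detroit 562. CDKN2B, a cell cycle inhibitor gene induced by TGF-β, had 0 to 1 count in untreated SCC-9, against 298 to 369 in Detroit 562 and 153 to 205 in FaDu. Of the ligand and decoy receptor genes, BMP5 (1 to 3 counts), BMP7 (3 to 6) and BAMBI (2 to 5) were near 0 in SCC-9 as well, against 9.02 CPM of BMP5 and 9.26 CPM of BAMBI in Detroit 562 and 25.5 CPM of BMP7 in FaDu. BMP5 was also near 0 in untreated FaDu, with 0 to 5 counts.

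HGF changed 4 of the 10 members in Detroit 562. TGFB1, INHBA and SMAD7 rose and TGFB2 fell, while 6.16% of all genes were called up and 11.7% called down. Over the members the median change was -0.05 on the log2 scale, and over all genes it was -0.01. Without control replicate 1 or 2 or HGF replicate 1, 2 members were called.

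**Figure D2:**
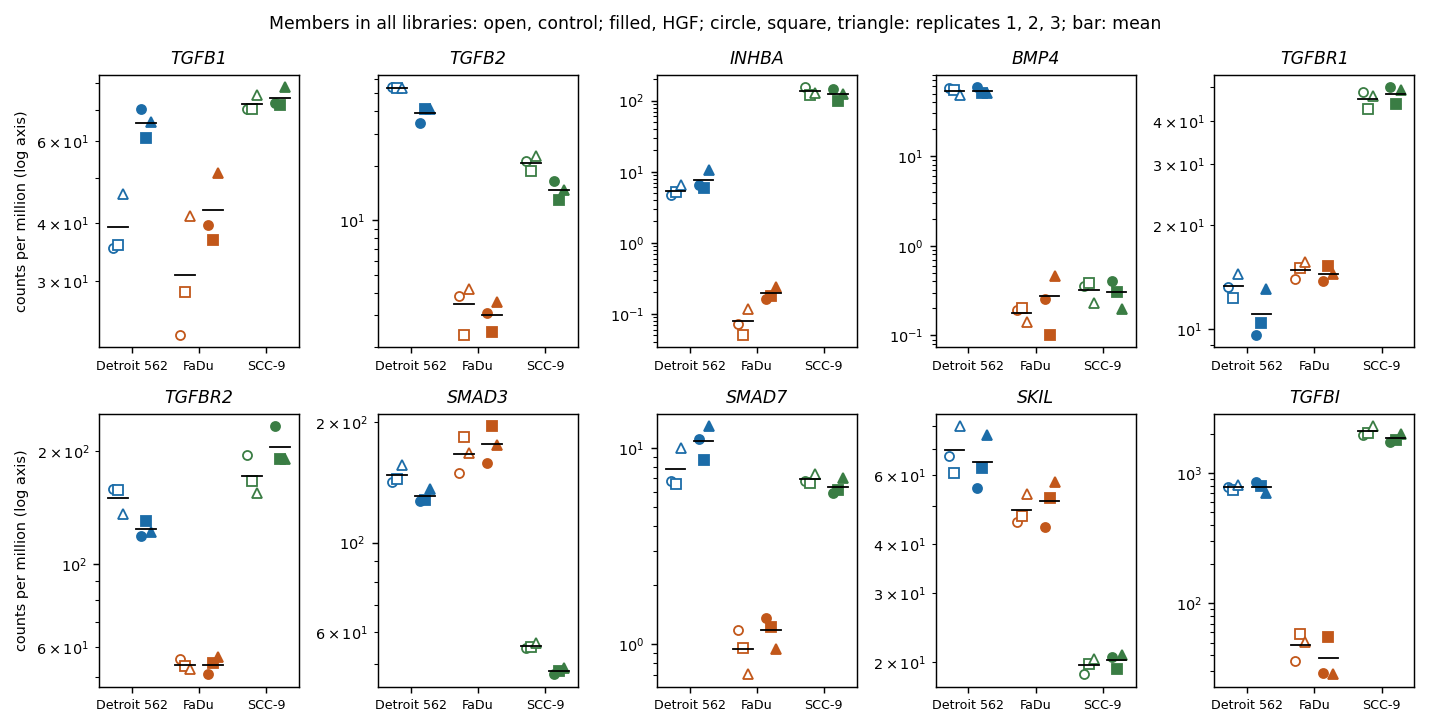
CPM (log axis) of the 10 members in all 18 libraries; open symbols are control, filled symbols HGF, shapes mark replicates 1 to 3 and bars are means. TGFB1 and TGFB2 separate without overlap in Detroit 562, where TGFB1 goes from 39.2 to 65.8 CPM and TGFB2 from 53.8 to 39.0.

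TGFB1 measured 35.4, 35.9 and 46.3 CPM in Detroit 562 control libraries and 70.4, 60.9 and 66.1 CPM with HGF. Each HGF library lay above each control library. The log2 fold change was 0.75 ± 0.168 (SE), a 1.68-fold increase (adjusted p = 0.00562), and stayed between 0.68 and 0.89 when any 1 library was left out.

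TGFB2 measured 54.3, 53.4 and 53.6 CPM in control and 34.5, 41.2 and 41.3 CPM with HGF. Here each HGF library lay below each control library. TGFB2 changed by -0.47 ± 0.148 on the log2 scale (adjusted p = 0.0305). Without HGF replicate 1 it was -0.38 (adjusted p = 0.102) and no longer called.

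INHBA measured 4.64, 5.19 and 6.46 CPM in control and 6.58, 5.96 and 10.5 CPM with HGF. It was higher with HGF in 3 of 3 same-numbered pairs, although the groups overlapped. Its log2 fold change was 0.49 ± 0.197 (adjusted p = 0.0749). The value dropped to 0.21 (adjusted p = 0.436) without HGF replicate 3, and the call was also lost without control replicate 1 (0.39, adjusted p = 0.265) or 2 (0.47, adjusted p = 0.18).

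SMAD7 measured 6.79, 6.55 and 10.0 CPM in control and 11.1, 8.72 and 12.9 CPM with HGF. It too was higher in 3 of 3 pairs with overlapping groups. Its log2 fold change was 0.49 ± 0.186 (adjusted p = 0.065). The call was lost without control replicate 1 (0.39, adjusted p = 0.237) or 2 (0.38, adjusted p = 0.234), and without HGF replicate 1 (0.47, adjusted p = 0.119) or 3 (0.35, adjusted p = 0.246). In a fit of Detroit 562 alone, the adjusted p was 0.162 for INHBA and 0.127 for SMAD7.

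The receptor genes and SMAD3 had smaller differences. TGFBR2 measured 158, 157 and 136 CPM in control and 119, 130 and 122 CPM with HGF, without overlap. Its log2 fold change of -0.28 ± 0.0935 (adjusted p = 0.0362) was below the fold minimum. The same held for TGFBR1 at -0.27 ± 0.102 (adjusted p = 0.0613) and SMAD3 at -0.18 ± 0.078 (adjusted p = 0.0997). TGFBR1 reached the minimum without HGF replicate 3 (-0.41, adjusted p = 0.0116). Over all fits that left out 1 library it ran from -0.41 to -0.18, with an adjusted p up to 0.218.

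BMP4, SKIL and TGFBI did not pass the test in Detroit 562. BMP4 had a log2 fold change of 0.01 ± 0.149, SKIL of -0.10 ± 0.119 and TGFBI of 0.00 ± 0.198. TGFBI measured 789, 750 and 820 CPM in control and 853, 792 and 708 CPM with HGF, so its HGF libraries lay on both sides of the control libraries.

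**Figure D3:**
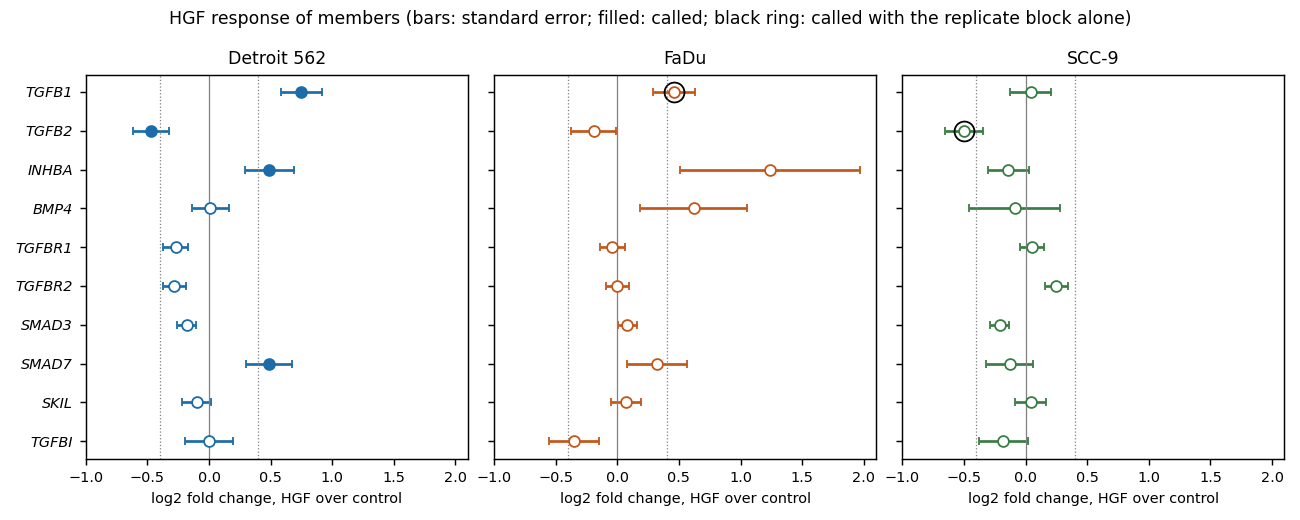
Log2 fold change of HGF over control for each member by line, with bars for the standard error and dotted lines at the fold minimum of 0.4; filled points are called, and a black ring marks a gene called only with the replicate block. TGFB1 (0.75), INHBA (0.49), SMAD7 (0.49) and TGFB2 (-0.47) are filled in Detroit 562.

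In FaDu 0 of 10 members were called, where 0.0258% of all genes were called; 1 member had an unadjusted p below 0.05, and DESeq2 called 0. That member was TGFB1, which measured 23.0, 28.4 and 41.5 CPM in control and 39.6, 36.8 and 51.4 CPM with HGF. It was higher with HGF in 3 of 3 pairs, and the groups overlapped. Its log2 fold change was 0.46 ± 0.168 (adjusted p = 0.552). When the replicate number entered the fit as a block, it was 0.48 (adjusted p = 0.00285) and called, in a fit that called 5.6% of all genes. Without FaDu control replicate 3 the unblocked value was 0.73 (adjusted p = 0.0818). Over all unblocked fits that left out 1 library it ran from 0.29 to 0.73, with an adjusted p up to 0.98. The paper, using DESeq2 at the same thresholds, reported more regulated genes in FaDu than the fit without the block called here.

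TGFB2 in FaDu measured 3.85, 2.34 and 4.18 CPM in control and 3.08, 2.44 and 3.56 CPM with HGF, with a log2 fold change of -0.19 ± 0.182 (adjusted p = 0.774). TGFBI measured 35.8, 58.1 and 50.5 CPM in control and 29.1, 55.6 and 28.5 CPM with HGF, lower in 3 of 3 pairs (-0.35 ± 0.204, adjusted p = 0.647). Without FaDu HGF replicate 2 it was -0.74 (adjusted p = 0.0813). Over all fits that left out 1 library it ran from -0.74 to -0.18, with an adjusted p up to 0.98. INHBA went from 2 to 5 counts to 7 to 10 counts, with a log2 fold change of 1.24 ± 0.731 (adjusted p = 0.65).

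In SCC-9 0 of 10 members were called, as were 0% of all genes; 3 members and 641 genes had an unadjusted p below 0.05, and DESeq2 called 0 members. The 3 were TGFB2, TGFBR2 and SMAD3. TGFB2 measured 21.3, 18.7 and 22.5 CPM in control and 16.4, 13.0 and 14.8 CPM with HGF. All HGF libraries lay below all control libraries. The log2 fold change of -0.50 ± 0.152 (adjusted p = 0.868) was called with the replicate block (-0.50, adjusted p = 0.00258), in a fit that called 1.97% of all genes. The paper, using DESeq2 at the same thresholds, did report regulated genes in SCC-9, so the 0% holds for the edgeR fit without the block.

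SMAD3 in SCC-9 measured 54.6, 55.1 and 56.4 CPM in control and 47.0, 47.9 and 48.8 CPM with HGF, again without overlap. The log2 fold change of -0.21 ± 0.079 was below the fold minimum. TGFBR2 measured 195, 166 and 155 CPM in control and 233, 190 and 191 CPM with HGF, higher in 3 of 3 pairs (0.25 ± 0.0932). TGFB1 had 70.5, 70.3 and 75.4 CPM in control and 72.6, 71.8 and 78.5 CPM with HGF (0.04 ± 0.165), which is 3 of 3 pairs higher by a small step.

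The balance of the TGFB1 and TGFB2 transcripts was taken as a ratio of counts per exon length, a measure added after the values were seen. In Detroit 562 it was 1.21, 1.25 and 1.6 in control libraries and 3.79, 2.74 and 2.97 with HGF. In FaDu it was 11.1, 22.5 and 18.4 in control and 23.8, 28 and 26.8 with HGF. In SCC-9 it was 6.13, 6.95 and 6.22 in control and 8.21, 10.3 and 9.82 with HGF.
The HGF libraries lay above the control libraries of their line in all 3 lines, with an exact two-sided permutation p of 0.1 in each, the smallest that 3 against 3 allows. For Detroit 562 the mean log2 change of the ratio was 1.23 ± 0.387 (SD over 3 pairs), for FaDu 0.65 ± 0.408 and for SCC-9 0.55 ± 0.119. Leaving out 1 library of a line gave 1.09 to 1.35, 0.36 to 0.87 and 0.48 to 0.64. Counts of both genes can include reads of a noncoding gene annotated on the same strand, over 3016 bases for TGFB1 and 1371 bases for TGFB2.

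**Figure D4:**
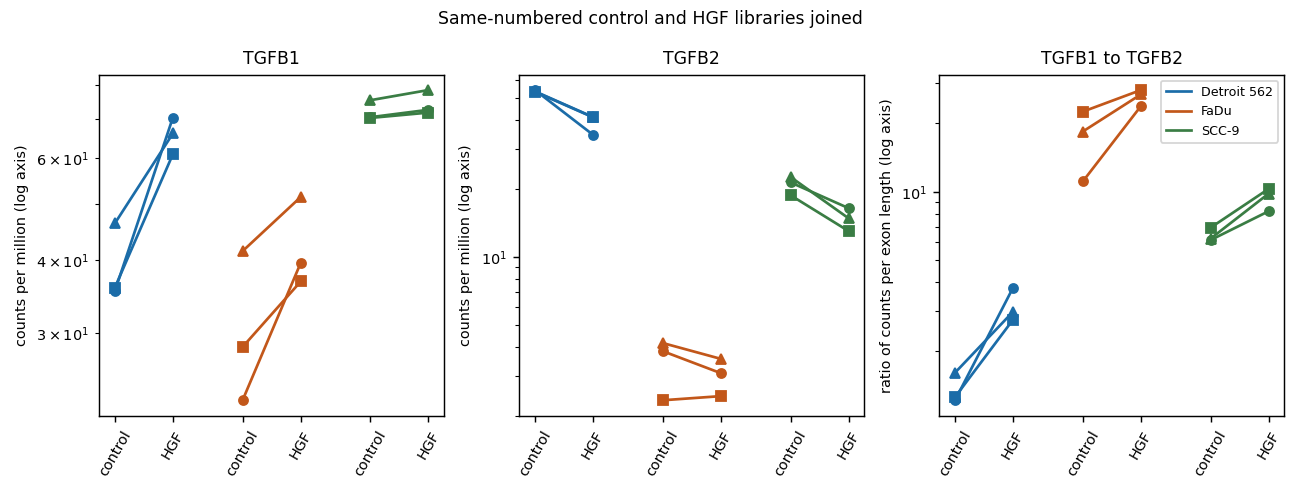
TGFB1 and TGFB2 levels (CPM, log axis) and their ratio per exon length (log axis), with same-numbered control and HGF libraries joined. The ratio rises in each joined pair, and its mean goes from 1.35 to 3.17 (Detroit 562), 17.3 to 26.2 (FaDu) and 6.43 to 9.43 (SCC-9).

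Whether the HGF response of a member differed between lines was tested by interaction terms. Between Detroit 562 and SCC-9 1 of 10 members passed (adjusted p below 0.1), as did 0.924% of all genes. This was TGFBR2, which was lower with HGF in 3 of 3 pairs of Detroit 562 and higher in 3 of 3 pairs of SCC-9. The difference of responses was -0.53 ± 0.132 (adjusted p = 0.0997). It lay at the threshold and was lost in 15 of 18 fits that left out 1 library, with values from -0.63 to -0.43; it passed without Detroit 562 control replicate 3, FaDu HGF replicate 3 or SCC-9 control replicate 1. It was also lost with no filter (adjusted p = 0.119) and in a fit of these lines alone (0.103).

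With the replicate block 5 members differed between Detroit 562 and SCC-9, in a fit where 26.9% of all genes did. These were TGFB1 (0.71, adjusted p = 0.00117), INHBA (0.63, adjusted p = 0.00148), SMAD7 (0.63, adjusted p = 0.00389), TGFBR1 (-0.33, adjusted p = 0.0205) and TGFBR2 (-0.53, adjusted p = 0.000402). For TGFB1 the unblocked difference was 0.70 ± 0.235 (adjusted p = 0.194). It passed without Detroit 562 control replicate 3 (0.84, adjusted p = 0.0656), as SMAD7 did (0.84, adjusted p = 0.0722). Over all fits that left out 1 library, the difference was 0.63 to 0.84 for TGFB1 and 0.48 to 0.84 for SMAD7. The adjusted p reached 0.468 and 0.588. TGFB1 also passed with DESeq2 (adjusted p = 0.0927) and in a fit of these lines alone (0.0409). TGFB2 did not pass in either fit (0.04 ± 0.212, adjusted p = 0.958).

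Between Detroit 562 and FaDu 0 of 10 members passed, against 0.239% of all genes; 2 had an unadjusted p below 0.05, and DESeq2 called 0. With the block 3 members passed, in a fit where 19.1% of all genes did. They were TGFBR2 (-0.28, adjusted p = 0.0334), SMAD3 (-0.26, adjusted p = 0.00602) and TGFBI (0.38, adjusted p = 0.0907). Between FaDu and SCC-9 0 of 10 members and 0% of all genes passed; 1 member and 337 genes had an unadjusted p below 0.05, and DESeq2 called 0 members. SMAD3 (0.29, adjusted p = 0.0246) passed with the block, as did 1.32% of all genes.

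In the rest of the pathway HGF changed 19 of 63 genes in Detroit 562, 9 up and 10 down, where 6.16% of all genes were called up and 11.7% down. The list's median change was -0.10 on the log2 scale, and 12 genes were called without control replicate 1. With the replicate block, which called 7.13% of all genes up and 14.4% down, 9 rose and 17 fell.

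**Figure D5:**
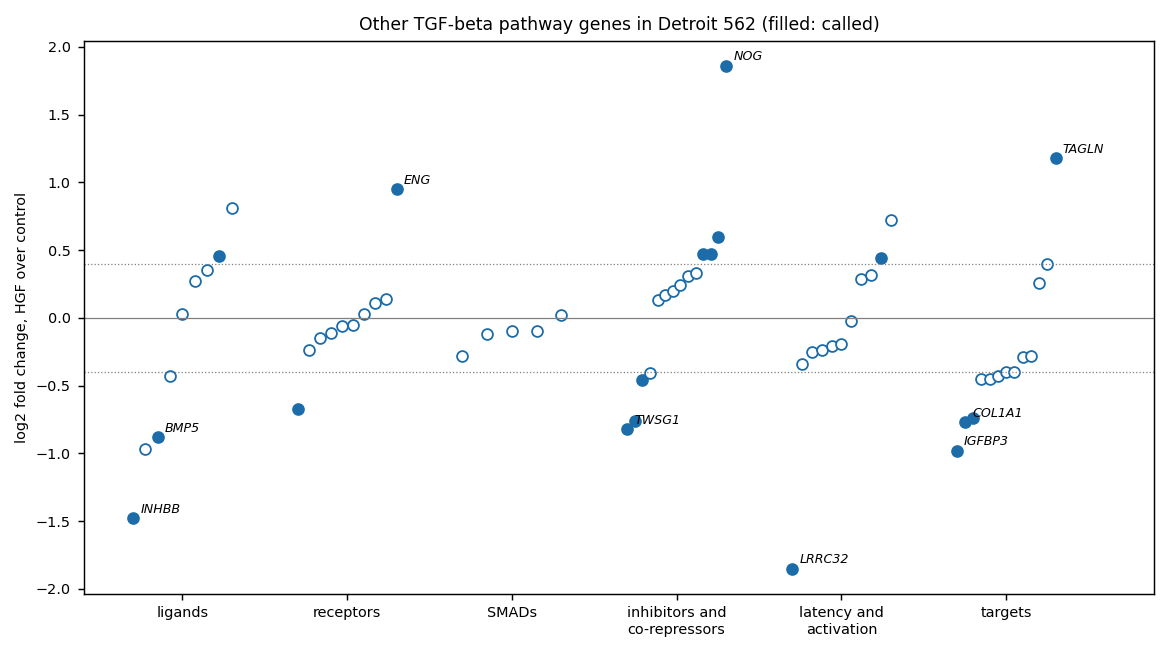
Log2 fold change of HGF over control in Detroit 562 for other pathway genes tested, by role; filled points are called and dotted lines mark the fold minimum of 0.4. NOG (1.86) and TAGLN (1.18) stand at the top of those drawn and LRRC32 (-1.85) and INHBB (-1.48) at the bottom.

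Of 14 targets 2 rose and 3 fell, where 6.16% of all genes were called up and 11.7% down. With the block 2 rose and 8 fell, where 7.13% of all genes were called up and 14.4% down. These shares also stand beside the counts of the other roles below. TAGLN, an actin-binding protein gene, rose from 18.9 ± 2.96 to 43.0 ± 2.39 CPM (SD, n = 3), without overlap and by a log2 fold change of 1.18 ± 0.156 (adjusted p = 0.000305). IGFBP3, which encodes a binding protein of insulin-like growth factors, fell from 874 ± 25.8 to 442 ± 84.5 CPM, and COL1A1, a collagen chain gene, fell from 19.2 ± 2.11 to 11.3 ± 0.395 CPM.

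Of 9 ligands tested 1 rose and 2 fell, and with the block 1 rose and 3 fell. INHBB, which encodes the activin βB chain, measured 12.1, 12.5 and 7.38 CPM in control and 4.28, 4.94 and 2.13 CPM with HGF (log2 fold change -1.48 ± 0.247, adjusted p = 0.00129). It fell where INHBA rose. BMP5 fell by 0.88 on the log2 scale (adjusted p = 0.0391), a call that was lost without control replicate 1 (adjusted p = 0.123) or 2 (0.152) or HGF replicate 3 (0.145). Of 10 receptors tested 1 rose and 1 fell, and of 5 SMADs 0 were called, with or without the block. The receptor that rose was ENG, the co-receptor endoglin, from 1.36 ± 0.0987 to 2.62 ± 0.0984 CPM.

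Of 14 inhibitors tested 4 rose and 3 fell, and with the block 4 rose and 4 fell. NOG, which encodes the BMP antagonist noggin, went from 2 to 14 counts to 17 to 33 counts (log2 fold change 1.86 ± 0.559, adjusted p = 0.0239). That call was lost without control replicate 1 (1.36, adjusted p = 0.123). TWSG1, an extracellular modulator of BMPs, measured 54.8, 46.9 and 44.6 CPM in control and 28.1, 29.1 and 25.6 CPM with HGF (-0.82 ± 0.0909, adjusted p = 0.000116). Of 11 latency and activation genes 1 rose and 1 fell. LRRC32, which encodes the latent TGF-β anchor GARP, fell from 57 to 149 counts to 19 to 41 counts.

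The ID genes, named here after their values were seen, did not pass in Detroit 562 without the block. Their log2 fold changes were -0.40 for ID1, -0.43 for ID2, -0.40 for ID3 and -0.45 for ID4, and with the block all 4 were called, with adjusted p of 0.00144, 0.000681, 1.37e-05 and 0.000783.

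In FaDu 0 of 63 pathway genes were called; 8 had an unadjusted p below 0.05, and DESeq2 called 1. That was LTBP2, which encodes a latent TGF-β binding protein and measured 8.26, 9.59 and 14.5 CPM in control and 18.5, 14.4 and 32.1 CPM with HGF (log2 fold change 1.00 ± 0.241, adjusted p = 0.354). The others with the smallest p were FST, the activin antagonist follistatin (1.05 ± 0.306), and TAGLN (0.57 ± 0.167), both at an adjusted p of 0.475. With the block 6 of 63 (9.52%) were called, against 5.6% of all genes, and LTBP2 (adjusted p = 7.19e-05), FST (2.77e-05) and TAGLN (0.00261) were among them. Without FaDu control replicate 3 the unblocked adjusted p was 0.0818 for LTBP2 and 0.0775 for FST. Without HGF replicate 2 it was 0.0567 and 0.0813. Over all fits that left out 1 library, the log2 fold change was 0.62 to 1.28 for LTBP2 and 0.57 to 1.52 for FST. The adjusted p reached 0.98 for both.

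In SCC-9 0 of 63 were called; 8 had an unadjusted p below 0.05, and DESeq2 called 0. ID2 measured 5.96, 7.89 and 14.2 CPM in control and 2.92, 5.34 and 7.76 CPM with HGF. It was lower in 3 of 3 pairs although the groups overlapped (-0.81 ± 0.292, adjusted p = 1). ID4 was at -0.83 ± 0.324 and ENG at 0.86 ± 0.313, both at an adjusted p of 1. With the block 4 of 63 (6.35%) were called in SCC-9, all lower with HGF, against 1.97% of all genes. Among them were ID2 (adjusted p = 0.00065), ID3 (0.000634) and ID4 (0.0125).

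The genes whose levels followed each member most closely were ranked by Pearson's r over the 18 libraries, on log2 CPM with the mean of each line removed, among 11465 genes. This is a description. Each line has control and HGF libraries and only its mean was removed, so the HGF response stays in these values. Shifts shared by same-numbered libraries stay in them too. The part of each in r was not tested. TGFB1 was followed most closely by PLOD3 (0.98), DFNA5 (0.97) and QSOX1 (0.96), and SKIL by HOOK3 (0.95), CAMSAP2 (0.91) and RC3H1 (0.91). For TGFBR1 they were MAN1A2 (0.93), ALG10B (0.92) and EPC2 (0.90), and for INHBA ETS1, PMAIP1 and NEDD4 (0.90 each). For TGFBI they were IGFBP6 (0.87), CDIP1 (0.87) and PRAG1 (0.84), for TGFBR2 SIPA1L3 (0.86), PRR15 (0.83) and ZBTB38 (0.81), and for SMAD7 AXIN1, C5orf34 and RPLP0 (0.86 each). TGFB2 had MARCH1 (0.85), VPS36 (0.85) and SGO2 (0.83), and SMAD3 had THRB (0.84), MLLT10 (0.83) and UBXN7 (0.81). For BMP4, RP11-889L3.3 (0.83) and ZNF324 (0.76) were among the closest 3. BMP4 had 4 to 19 counts in FaDu and 8 to 17 in SCC-9 libraries, and INHBA had 2 to 10 in FaDu. The r of these members thus rests in part on few counts.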

How the data were processed

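Poly-A mRNA libraries (TruSeq Stranded mRNA) of 18 cell line samples were analysed. The deposited table holds raw counts per gene, which the authors made from trimmed reads aligned to GRCh38.p12. The submitters' processing notes name bcl2fastq 2.20.0.422, cutadapt 1.16, STAR 2.5.2b, bedtools and DESeq2 1.22.1, and the methods give GENCODE annotations and strand-specific counting, in which a read counts for each gene it overlaps. Whether intron reads were included is not stated outright. The methods intersect reads with a gene annotation file, and the counts come with a start and an end for each gene as a whole. TGFB2, for example, spans 98385 bases with 6050 bases of exon. If intron reads were counted, levels per exon length are too high for genes with long introns. Genes were filtered by expression, scaled by TMM and fitted over all 6 groups with edgeR 4.0.16 (quasi-likelihood, R 4.3.3, limma 3.58.1). P-values were adjusted over 15475 genes by Benjamini-Hochberg. Calls needed an adjusted p under 0.1 together with a log2 change of 0.4 or more in size, and interactions the adjusted p alone. Exon lengths came from GENCODE 44. Counts summed over genes were 35304770 to 44003970 per library, which is not a number of reads, since a read can count for more than 1 gene. Intervals and SEs cover the spread between libraries.

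Same-numbered control and HGF libraries deviated together: the correlations of their deviations were 0.161 to 0.454 in Detroit 562, 0.376 to 0.563 in FaDu and 0.203 to 0.332 in SCC-9. For different numbers the means were -0.144, -0.227 and -0.136. Deviations from a group mean cancel out within the group, so these negative means follow largely from the same-number values and add no separate evidence. The numbers were therefore taken to pair the libraries. The main fit nevertheless leaves this pairing out, since the methods name no replicate term. With the replicate block, the genes called with HGF went from 4 to 867 in FaDu and from 0 to 305 in SCC-9. The fit with the block is given where it changes the call of a member, and as counts for the HGF responses of pathway genes.

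Alternatives were the replicate block, DESeq2 1.42.0 and its size factors, no filter, the compared lines alone, a stricter threshold (0.05 and 1) and each library left out. Named pathway genes were the called ones with the largest fold changes, or the 3 with the smallest p where fewer than 3 were called, and for untreated pairs the 3 largest. A pathway gene and a gene ranked by likeness are not reported here, although counts over lists include them. The members and lists were chosen with earlier results of these data known.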

Additional observations from a re-analysis of the deposited data

Results flagged for a closer look

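The differences of the HGF response below passed the interaction test between lines. TGFBR2 went from 150 to 123 CPM in Detroit 562 and from 172 to 205 CPM in SCC-9, a difference of responses of -0.53 on the log2 scale (edgeR, adjusted p = 0.0997). It lay at the threshold and was lost in 15 of 18 fits that left out 1 library.

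In the pathway list TWSG1 fell more in Detroit 562 (48.8 to 27.6 CPM) than in FaDu (49.1 to 44.9 CPM), by -0.69 (adjusted p = 0.0519), and than in SCC-9 (75.1 to 70.3 CPM), by -0.73 (adjusted p = 0.0242). BMPR1B, a type I BMP receptor gene, went from 14.8 to 9.31 CPM in Detroit 562 and from 2.93 to 3.39 CPM in SCC-9, a difference of -0.88 (adjusted p = 0.0952). Of the 63 pathway genes 1 passed between Detroit 562 and FaDu, against 0.239% of all genes. Between Detroit 562 and SCC-9 3 passed, against 0.924%. How the differences of TWSG1 and BMPR1B hold with a library left out was not examined.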

How the results depend on the processing

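Of 115 log2 fold changes, 90 of members and 25 of named pathway genes, the alternatives kept direction and call in 2777 cases, brought a call in 31, ended one in 50 and turned the direction in 15. Most alternatives left out 1 library, often one outside the compared groups, and many changes were not called to begin with. The tally is thus no measure of how firm a call is. In Detroit 562 the calls of INHBA and SMAD7 were lost in 3 and 4 fits that left out 1 library. With the replicate block the members called were 1 in FaDu, 1 in SCC-9, and for differing responses 3 (Detroit 562 against FaDu), 5 (Detroit 562 against SCC-9) and 1 (FaDu against SCC-9), and the pathway genes called were 6 in FaDu and 4 in SCC-9. In Detroit 562, 2 members were called in the fit of that line alone and 0 members and 5 pathway genes at the stricter threshold. For Detroit 562 against SCC-9, 0 members passed with no filter, 0 at the stricter threshold and 2 with DESeq2 with or without a fold change prior, which called 1 pathway gene in FaDu. Leaving out 1 library gave 2 to 4 members and 12 to 23 pathway genes in Detroit 562, 0 to 1 members and 0 to 3 pathway genes in FaDu, and 0 to 3 members for Detroit 562 against SCC-9. Shares over all genes are given for the main fit and the block alone. The counts of the other settings thus have no such share beside them and are no result about the lists. The block changed no call beyond those given beside the results among members. The turned directions came from leaving out 1 library, for values near 0: BMP4 (Detroit 562) -0.07 to 0.06, SKIL (Detroit 562) -0.23 to 0.01, BMP4 (SCC-9) -0.36 to 0.13, SMAD7 (response, Detroit 562 minus FaDu) -0.03 to 0.39, TGFB2 (response, Detroit 562 minus SCC-9) -0.04 to 0.13, BMP4 (response, Detroit 562 minus SCC-9) -0.12 to 0.37, SKIL (response, FaDu minus SCC-9) -0.05 to 0.13, TGFBI (response, FaDu minus SCC-9) -0.56 to 0.01, SMAD7 (untreated Detroit 562 minus untreated SCC-9) -0.06 to 0.28. Few counts limit INHBA and BMP4 in FaDu and BMP4 in SCC-9. The cause of these changes was not tested.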
